A study of Agaricus bisporus with 8 samples.

Results

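The arrays described here measured the response to drought of mycelium that had been watered with riboflavin (vitamin B2). They are the 4 arrays whose titles name growth with riboflavin, of 8 arrays in the series, and were taken by title, without reference to any signal. The organism was Agaricus bisporus, the button mushroom, strain H97 of the variety bisporus, and the material was mycelium, the mass of feeding hyphae. Hyphae grew on hay in closed chambers and received water with 50 µM riboflavin for 3 weeks. Watering then ceased in the drought arm and went on in the irrigated arm, and RNA was taken on day 3 and day 7. The irrigated control had therefore received riboflavin too, and the comparison is of drought with irrigation, not of riboflavin with water. Each array was hybridised with drought RNA in one dye and irrigated RNA of the same day in the other. Drought RNA carried Cy3 (green) in replicate 1 and Cy5 (red) in replicate 2, so that each day had 1 array of each dye orientation. Replicate number and dye orientation are thereby the same variable. The titles number separate replicates while the descriptions give both arrays of a day the same biological replicate number. If they are not separate cultures, the spread that the p-values rest on is technical.

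Riboflavin is the precursor of the cofactors FMN and FAD, which carry electrons in many oxidoreductases. Among them are succinate dehydrogenase, whose large subunit binds FAD, and complex I of the mitochondrial respiratory chain, which binds FMN. Hyphae that lose water commonly accumulate compatible solutes, of which mannitol is a main one in this mushroom, and raise chaperones and antioxidant enzymes. In a dye swap, a transcript that follows the treatment keeps its sign once every ratio is turned to drought over irrigated. A signal that follows the dye changes its sign.

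Signals were low. An array had 522 to 796 of its 10413 genes (5.01% to 7.64%) well above background in one channel or both. The irrigated channel of day 7 replicate 2 had the fewest, with 226 genes, against 478 to 550 in the other irrigated channels and 430 to 565 in the drought channels. On every array the Cy5 channel had more genes well above background than the Cy3 channel. AGABI2DRAFT_75870, AGABI2DRAFT_75612 and AGABI2DRAFT_187811, the genes of highest signal, together took 39.3% to 68.4% of all background-subtracted signal in Cy3 channels. In Cy5 channels they took 84.6% to 89.5%. The cause of this difference between dyes was not tested. A gene was tested if it was well above background in 1 channel or more on both arrays of a day, which 526 genes were. Of these, 121 were well above background in all 8 channels. Duplicate spots of 281 tested genes differed within an array by a median of 0.0962 to 0.107 log2 units and correlated at 0.944 to 0.986. The array held 3 symbols listed as mycelium markers, the laccases lcc1 and lcc2 and the manganese peroxidase MnP. Neither laccase was well above background on any array, and MnP was so in 1 irrigated channel. The other symbols of that list and those of the fruit body list matched no gene. These 3 markers did not bear out the label mycelium, but they were near or below background, as most genes of the array were. The label could thus not be tested by them, nor against fruit body.

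The replicates opposed each other. Over the 526 genes, the log2 ratio of drought to irrigated signal gave a Pearson correlation between the replicates of -0.39 for day 3 and -0.50 for day 7 (Spearman's rho -0.24 and -0.37). The days, in contrast, correlated at 0.69 within replicate 1 and at 0.88 within replicate 2 (rho 0.53 and 0.74). These are descriptions across genes, which share arrays and are not independent. The labels state the dyes, so the direction is given as labelled. Because the arrays of opposite orientation disagree, means with both replicate 2 arrays turned are also given, beside the gene or with the processing alternatives. One sign throughout was found for 73 of the 526 genes (13.9%), 47 positive (8.94%) and 26 negative (4.94%). A further 212 (40.3%) had one sign on both replicate 1 arrays and the other on both replicate 2 arrays, and 26 (4.94%) had opposed days. Some genes share a sign on 4 arrays by chance, so a shared sign alone does not show a response to drought. The split of same-sign genes depended on scaling. It was 57 positive and 15 negative without background correction and 54 and 13 with the processed signals of the scanner software, which also moved the median response of the tested genes by 0.158. Among the 43 genes with a ratio beyond 0.5 in size on every array, 33 were opposed and 4 had the same sign on all 4.

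**Figure D1:**
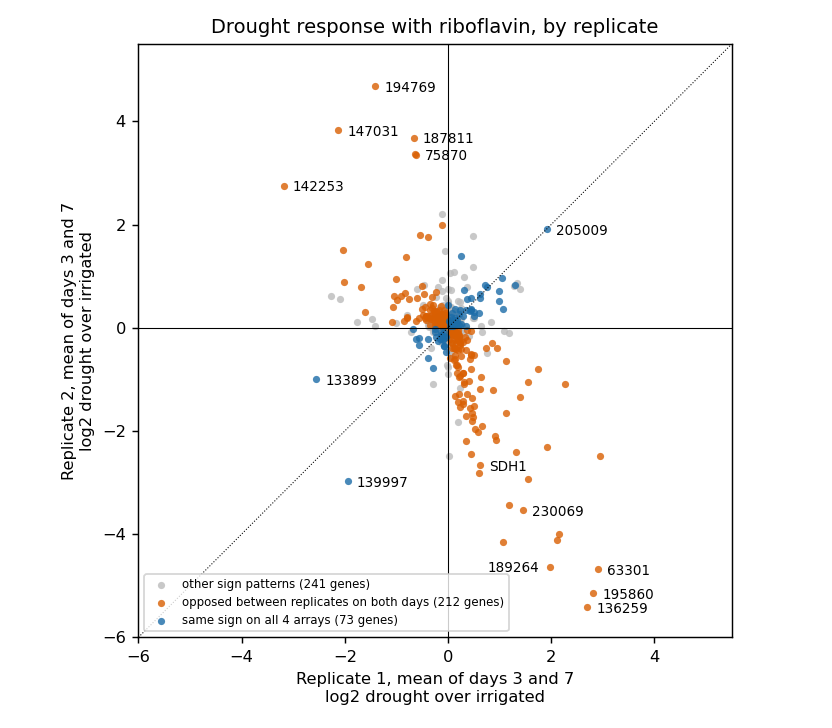
Mean log2 drought-over-irrigated ratio of days 3 and 7 in replicate 1 (horizontal) against replicate 2 (vertical) for 526 tested genes, 1 point per gene, coloured by sign pattern, with the dotted line marking equal values and the numbers of named genes' locus tags printed. The largest ratios lie in the upper left and lower right, where the replicates oppose, and AGABI2DRAFT_139997, AGABI2DRAFT_133899 and AGABI2DRAFT_205009 stand apart in the lower left and upper right, where they share a sign.

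The squared ratios can be divided exactly among what the 4 arrays shared, the replicate, the day and the rest. The response shared by all 4 arrays held 22.5% of the summed squares and the replicate held 68.2%. The day held 6.73% and the joint effect of day and replicate 2.62%. The 43 genes with ratios beyond 0.5 in size on every array were then left out. The remaining 483 genes gave 30.0% to the shared response, 53.4% to the replicate and 12.1% to the day. The ranking of these shares was thus the same without those 43 genes. The 483 still held genes with large ratios on some arrays, such as AGABI2DRAFT_75870 and SDH1.

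**Figure D2:**
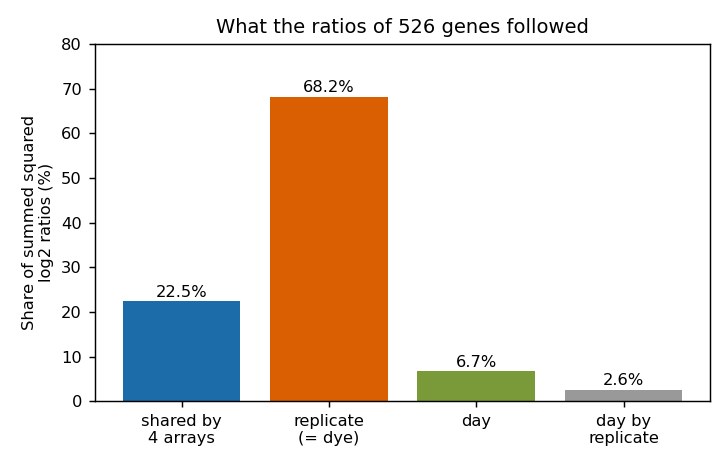
Share of the summed squared log2 ratios of 526 genes (percent, vertical) taken by the response common to the 4 arrays, by replicate number (equal to dye orientation), by day and by both together. The replicate bar reaches 68.2% and the shared response 22.5%.

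Drought was tested as the mean of the 4 log2 ratios against 0, which cancels a dye effect because each orientation is held by 2 arrays. Limma with Benjamini-Hochberg adjustment over the 526 genes called 0 genes (0.00%) at an adjusted p under 0.05. At an unadjusted p under 0.05 there were 32 genes (6.08%), 24 higher (4.56%) and 8 lower (1.52%) under drought, of which 28 had the same sign on all 4 arrays. The smallest adjusted p was 0.212, shared by AGABI2DRAFT_117817 and AGABI2DRAFT_139997. These SEs and p-values treat the 4 arrays as independent, although the days correlated within a replicate. With replicate as a random block (correlation 0.61), the smallest adjusted p in limma was 0.887. A ratio in whole mycelium cannot tell fewer hyphae that express a gene from less transcript per hypha. The locus tags of the array carry no descriptions, so the genes below are given without functions unless a symbol is printed.

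AGABI2DRAFT_139997 was the gene with the largest shared response. Its day 3 drought levels, as log2 channel signal, were 8.21 and 8.37 (replicates 1 and 2) and its day 7 levels 8.25 and 7.31. The irrigated levels on the same arrays were 9.84, 11.01, 10.51 and 10.61. Every irrigated level lay above every drought level, and all 8 channels were well above background. The 4 log2 ratios were -1.63, -2.65, -2.26 and -3.30, with a mean of -2.46 ± 0.30 (limma SE, n = 4 arrays) and an adjusted p of 0.212. Leaving out any 1 array gave -2.74 to -2.18. With replicate 2 turned the mean was 0.51, since the ratios of this gene were alike as labelled. Of the genes well above background in all 8 channels, 7 had drought and irrigated levels that did not overlap, as this gene did. Over all tested genes there were 23 such genes (4.37%), 15 with higher and 8 with lower drought levels.

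AGABI2DRAFT_133899 had log2 ratios of -2.15 and -0.27 on day 3 and -2.96 and -1.73 on day 7. Its drought levels of 7.36, 8.08, 7.53 and 6.86 lay below its irrigated levels of 9.51, 8.35, 10.48 and 8.59 without overlap, although day 3 replicate 2 came close. The mean was -1.78 ± 0.47 (SE, adjusted p 0.603). It stayed negative with replicate 2 turned (-0.78). Here replicate 1 had the larger ratios on both days.

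The other 4 genes named for a negative sign on every array had smaller means. AGABI2DRAFT_113958, measured in all 8 channels, had ratios of -0.30, -0.70, -0.27 and -0.85 and a mean of -0.53 ± 0.14 (adjusted p 0.594, 0.24 if turned). The 2 replicate 2 values were the larger ones. The drought channel of AGABI2DRAFT_192006 exceeded background clearly on no array and its irrigated channel on 3. Its irrigated signal averaged 1.35-fold over a drought signal held at or above the lowest measured one. On day 7 replicate 2 both channels were dim, so this fold is not a strict bound. The ratios of AGABI2DRAFT_192006 were -0.56, -0.54 and -0.55 on 3 arrays and -0.11 on day 7 replicate 2. Its mean with replicate 2 turned was -0.11. AGABI2DRAFT_121244 had a mean of -0.48 ± 0.19 (0.096 if turned) and AGABI2DRAFT_194860 one of -0.41 ± 0.18 (-0.20 if turned). The drought channel of AGABI2DRAFT_121244 was well above background on 1 array, and AGABI2DRAFT_194860 had both channels measured on part of the arrays only, so these sizes are not exact.

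AGABI2DRAFT_205009 had the largest positive mean of the genes with one sign. Its drought level was nearly constant, at 9.07 and 9.07 on day 3 and 9.005 and 9.02 on day 7. The irrigated level was 8.09, 7.15, 6.15 and 7.13 on the same arrays, below every drought level. The ratios were 0.98, 1.92, 2.86 and 1.89 and their mean 1.91 ± 0.32 (SE, adjusted p 0.413). The spread of its ratios thus came from the irrigated channel. If replicate 2 is turned the mean is near 0, because both replicates gave the same size (1.92 and 1.90).

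AGABI2DRAFT_211434 gave ratios of 1.48 and 1.44 on day 3 and of 1.11 and 0.23 on day 7, so day 7 replicate 2 was the low array. Its mean was 1.07 ± 0.25 (adjusted p 0.520, 0.23 if turned), and its drought levels of 6.93 to 8.34 lay above its irrigated levels of 6.43 to 6.86. In AGABI2DRAFT_194064 the days differed more than the replicates. Its day 3 ratios were 0.42 and 0.34 and its day 7 ratios 1.67 and 1.58, with a mean of 1.00 ± 0.30 (adjusted p 0.716, 0.042 if turned). The irrigated channel was well above background on 3 of the 4 arrays. AGABI2DRAFT_113897, measured in all 8 channels, followed the replicate within its positive sign, with 0.08 and 0.43 in replicate 1 and 1.31 and 1.49 in replicate 2. Its mean was 0.83 ± 0.29 (adjusted p 0.790, -0.57 if turned). Its difference between replicates was 1.14 ± 0.18 (adjusted p 0.0253).

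Steadier ratios belonged to AGABI2DRAFT_194933 and to AGABI2DRAFT_117817, the second of which was picked afterwards for its small p-value. AGABI2DRAFT_117817 had 0.76, 0.69, 0.69 and 0.96, with a mean of 0.78 ± 0.08 (SE, -0.050 if turned). Its drought level was well above background on all 4 arrays and its irrigated level on 1, so the mean is limited by the dim channel. AGABI2DRAFT_194933 had 1.18, 0.81, 0.80 and 0.63 and a mean of 0.85 ± 0.12 (adjusted p 0.227, 0.14 if turned), with 2 irrigated channels measured. AGABI2DRAFT_67862 gave 0.75, 1.28, 0.76 and 0.32, a mean of 0.78 ± 0.18 (adjusted p 0.517, -0.022 if turned), with 1 irrigated channel measured. The drought and irrigated levels of AGABI2DRAFT_194933 and AGABI2DRAFT_117817 did not overlap, while those of AGABI2DRAFT_67862 did.

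The sizes of most of these means depended on the background correction. With the processed signals of the scanner software the mean was 3.25 for AGABI2DRAFT_117817, 3.02 for AGABI2DRAFT_67862, 2.61 for AGABI2DRAFT_194933, 2.14 for AGABI2DRAFT_194064, 2.07 for AGABI2DRAFT_211434 and 2.88 for AGABI2DRAFT_205009. On the negative side it was -2.49 for AGABI2DRAFT_121244, -2.44 for AGABI2DRAFT_192006, -1.29 for AGABI2DRAFT_194860 and -1.16 for AGABI2DRAFT_113958. An offset of 16 in place of 50 also enlarged the means of dim genes, for example to 1.26 for AGABI2DRAFT_117817 and -0.82 for AGABI2DRAFT_192006. Those of AGABI2DRAFT_139997 and AGABI2DRAFT_133899 moved less, to -3.07 and -2.26 with processed signals. None of these means passed the test under either setting.

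**Figure D3:**
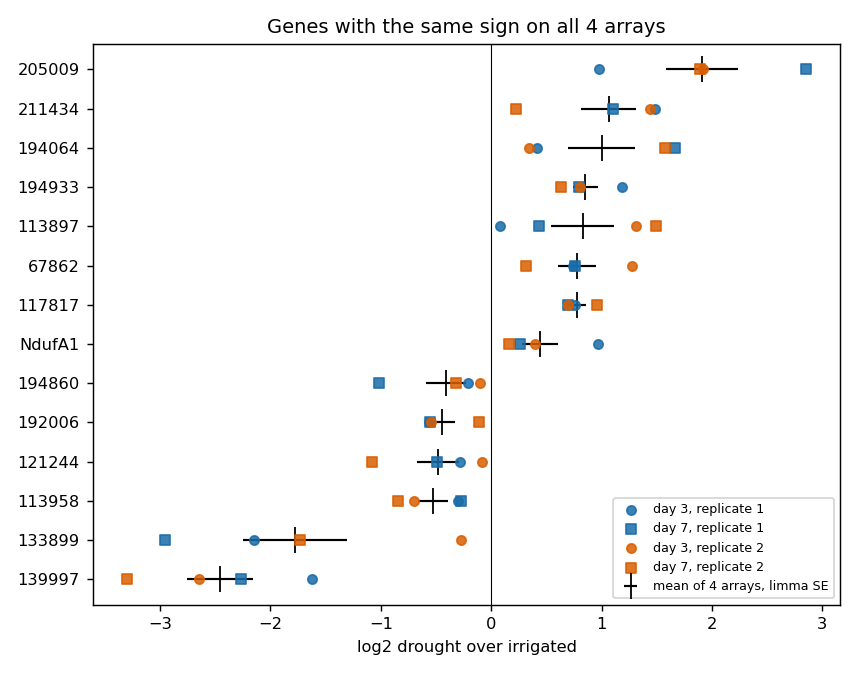
Log2 drought-over-irrigated ratio (horizontal) on each of the 4 arrays for 14 named genes with the same sign on all of them, with symbols for day, colours for replicate, and the mean with its limma standard error. AGABI2DRAFT_139997 lies between -3.30 and -1.63 and AGABI2DRAFT_205009 between 0.98 and 2.86, and the points of AGABI2DRAFT_117817 lie closest together.

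A fit with replicate number as a block, which is a dye orientation term, left the means as they were and took the opposition of the replicates out of the error. Limma then called 37 genes (7.03%), 11 higher (2.09%) and 26 lower (4.94%). Of these 37, 7 had the same sign on all 4 arrays and 27 had opposed replicates. The 7 were AGABI2DRAFT_139997 and AGABI2DRAFT_113958 on the negative side and AGABI2DRAFT_113897, AGABI2DRAFT_117817, AGABI2DRAFT_194933, AGABI2DRAFT_195151 and AGABI2DRAFT_213298 on the positive side. The last 2, picked afterwards, had adjusted p-values of 0.426 and 0.517 without the block. AGABI2DRAFT_195151 had ratios of 0.90, 0.61, 1.07 and 0.42 (mean 0.75, 0.23 if turned, 2.96 with processed signals). AGABI2DRAFT_213298 had 0.29, 0.76, 0.34 and 0.70 (mean 0.52, -0.21 if turned, 2.09 with processed signals). Both had drought levels well above background on all 4 arrays. The irrigated level was so on 1 array for AGABI2DRAFT_195151 and on 2 for AGABI2DRAFT_213298, so the dim channel limits these means. The adjusted p of AGABI2DRAFT_139997 was 0.0200 in this fit and 0.0170 to 0.923 over all alternatives. For 27 of the 37, the mean that was called averages ratios of opposite sign. AGABI2DRAFT_230069 and AGABI2DRAFT_76138 are examples, picked afterwards for their p-values. The first was called at a mean of -1.04 from ratios of 1.36, -3.60, 1.54 and -3.47. The second was called at 0.94 from ratios of -0.094, 1.98, -0.14 and 2.02. The block also moved SDH1 and the opposed genes AGABI2DRAFT_189264, AGABI2DRAFT_194769, AGABI2DRAFT_147031 and AGABI2DRAFT_187811, described below, past the threshold, with adjusted p-values of 0.0342, 0.0256, 0.0256, 0.0267 and 0.0267.

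The size of the opposition was tested as replicate 2 minus replicate 1 of the drought response. Limma called 84 genes (16%), 23 with a higher value in replicate 2 (4.37%) and 61 with a lower one (11.6%). This split depended on the scaling. It was 64 and 49 with median centring in place of loess, and 125 and 80 with the processed signals. The day-to-day spread is the error of this test, and 52 genes had a difference beyond 2 log2 units in size. Each orientation was held by 1 replicate, sampled on different days. The p-values of this test and of the replicate block fit therefore measure no spread between replicates.

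The 4 genes that headed the opposed genes with higher drought ratios in replicate 2 were measured in all 8 channels. AGABI2DRAFT_194769 had log2 ratios of -1.63 and 4.94 on day 3 and -1.18 and 4.42 on day 7. Its day 3 drought levels were 11.73 and 12.57 and its day 7 drought levels 10.52 and 14.30, against irrigated levels of 13.36 and 7.62 and then 11.70 and 9.88. On day 3 the irrigated channels of the replicates lay further apart than the drought channels, and on day 7 the drought channels lay further apart. Sorted by dye, its levels overlapped only slightly, with a lowest Cy5 level of 11.70 and a highest Cy3 level of 11.73. The pooled mean of 1.64 ± 1.46 (adjusted p 0.835, -3.04 if turned) lay between the values of the replicates, while the difference between replicates was 6.09 ± 0.27 (adjusted p 0.00137).

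In AGABI2DRAFT_142253 the opposed ratios were of nearly equal size. Its ratios were -3.83, 2.62, -2.53 and 2.89 and its mean -0.21 ± 1.44. Sorted by dye, its Cy5 levels (10.84, 9.34, 9.84 and 10.58) all lay above its Cy3 levels (7.01, 6.72, 7.31 and 7.70). With replicate 2 turned its mean was -2.97 ± 0.25, with an adjusted p of 0.0232. AGABI2DRAFT_147031 had ratios of -2.20, 4.03, -2.06 and 3.62, a mean of 0.85 ± 1.43 (-2.98 if turned) and a replicate difference of 5.95 ± 0.19 (adjusted p 0.00125). Its Cy5 levels, too, all lay above its Cy3 levels.

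AGABI2DRAFT_187811, AGABI2DRAFT_75870 and AGABI2DRAFT_75612 had drought ratios near or below 0 in replicate 1 and far above it in replicate 2. For AGABI2DRAFT_187811 these were -0.65 and -0.69 in replicate 1 and 4.13 and 3.22 in replicate 2. For AGABI2DRAFT_75870 they were near 0 (-0.0017) and -1.26 in replicate 1 and 4.39 and 2.32 in replicate 2. The ratios of AGABI2DRAFT_75612 differed from those of AGABI2DRAFT_75870 by at most 0.024 on any of the 4 arrays, so whether both probes read separate transcripts is uncertain. In each of these genes every Cy5 level lay above every Cy3 level, by a small margin in AGABI2DRAFT_75870 and AGABI2DRAFT_75612. Means were 1.504 ± 1.05 (AGABI2DRAFT_187811) and 1.36 ± 1.04 (AGABI2DRAFT_75870), and -2.17 and -1.99 with replicate 2 turned. With median centring in place of loess they were 0.52 and 0.32. The replicate difference passed the test for AGABI2DRAFT_187811 (4.35 ± 0.34, adjusted p 0.00528), while that of AGABI2DRAFT_75870 was 3.99 ± 0.87 (adjusted p 0.0579).

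The opposite pattern, with higher drought ratios in replicate 1, was led by AGABI2DRAFT_136259. Its day 3 ratios were 1.48 and -5.04 and its day 7 ratios 3.91 and -5.79. The irrigated levels of day 3 were 11.47 and 14.79, those of day 7 10.32 and 14.48, and the drought levels 12.95 and 9.75 and then 14.23 and 8.68. Both channels therefore exchanged their order between replicates, in the same way on each day. Sorted by dye, every Cy3 level lay above every Cy5 level. Its mean was -1.36 ± 1.99 (adjusted p 0.911, 4.06 if turned) and its replicate difference -8.11 ± 0.90 (adjusted p 0.0101). Without day 7 replicate 2 the mean was 0.12.

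AGABI2DRAFT_195860, AGABI2DRAFT_63301 and AGABI2DRAFT_189264 had the same pattern, each with all its Cy3 levels above all its Cy5 levels. AGABI2DRAFT_195860 had ratios of 1.85, -5.40, 3.79 and -4.88 and was measured in all 8 channels. Ratios of AGABI2DRAFT_63301 were 2.52, -4.80, 3.31 and -4.57, and its day 7 replicate 2 drought signal was too dim to measure. AGABI2DRAFT_189264 had 1.69, -4.50, 2.26 and -4.76, with 3 channels of each kind measured. Replicate differences of these genes were -7.96 ± 0.72, -7.60 ± 0.31 and -6.60 ± 0.25, with adjusted p-values of 0.00632, 0.00125 and 0.00125. AGABI2DRAFT_63301 was also called with replicate 2 turned (3.80 ± 0.44, adjusted p 0.0368).

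**Figure D4:**
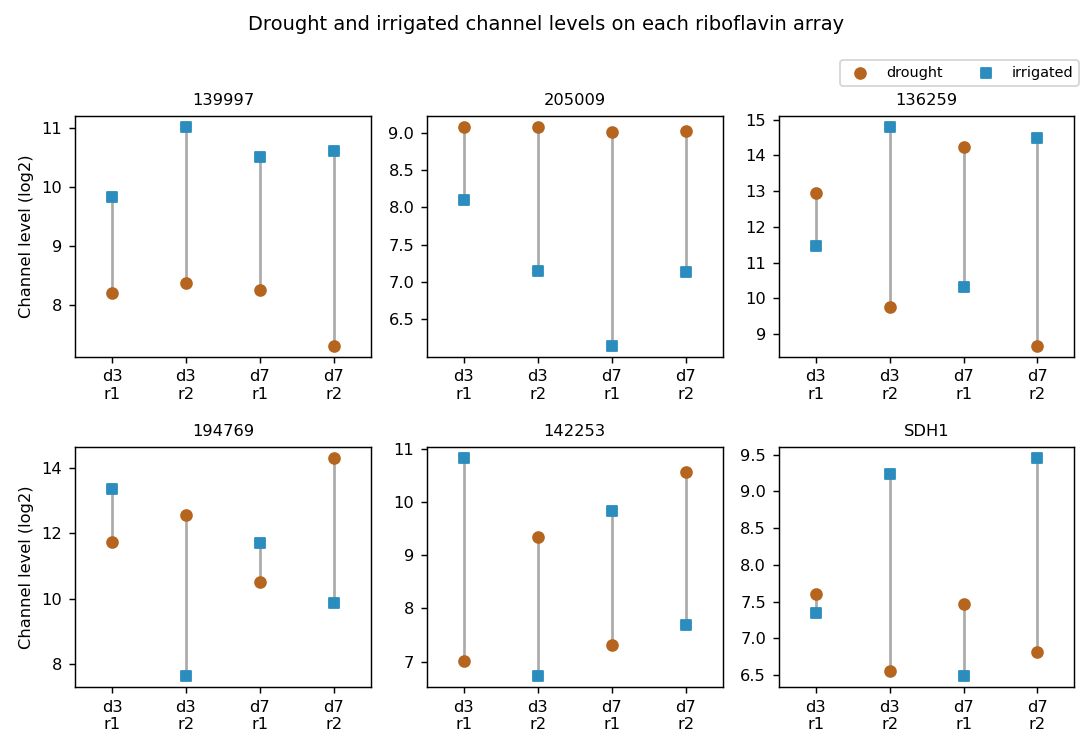
Log2 channel level (vertical, own scale in each panel) of drought (circles) and irrigated RNA (squares) on the day 3 (d3) and day 7 (d7) arrays of replicates 1 and 2 (r1, r2), for 6 genes. Drought lies below irrigated on every array for AGABI2DRAFT_139997 and above it for AGABI2DRAFT_205009, whereas for AGABI2DRAFT_136259, AGABI2DRAFT_194769, AGABI2DRAFT_142253 and SDH1 the order changes with the replicate.

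Levels sorted by dye separated more genes than levels sorted by treatment. All 4 Cy5 levels lay above all 4 Cy3 levels for 42 genes and below them for 82, in all 124 of 526 (23.6%), against 23 (4.37%) for drought and irrigated levels. Among the 121 genes measured in all 8 channels these counts were 35 and 7. The irrigated channels of the replicates lay more than 2 log2 units apart on both days for 17 genes, and the drought channels for 7. After each gene was centred over the 8 channels, the irrigated channels of replicate 2 correlated at 0.90 between days, and those of replicate 1 at 0.47. Irrigated channels of different replicates correlated at -0.64 on day 3 and -0.58 on day 7. Drought channels correlated between replicates at -0.059 on day 3 and -0.49 on day 7, and between days at 0.60 in replicate 1 and 0.54 in replicate 2. Replicate number and dye cannot be told apart here. With both replicate 2 arrays turned, limma called 9 genes (1.71%), 4 higher (0.760%) and 5 lower (0.951%). All 9 were opposed as labelled, which a call after turning nearly requires.

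Opposition occurred at every signal. In the dimmest 175 genes 37.1% were opposed and 13.7% had the same sign, and in the brightest 176 genes these shares were 43.2% and 15.3%. The median size of a ratio, in contrast, was 0.12 in the former and 0.54 in the latter.

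The respiratory chain was the pathway with most symbols on the array, and 4 of its genes were tested. None was called for drought in the limma fit without the replicate block, and SDH1 was called with it. SDH1, the flavoprotein subunit of succinate dehydrogenase that carries FAD, had log2 ratios of 0.26 and -2.68 on day 3 and 0.98 and -2.65 on day 7. Its drought levels were 7.60 and 6.56 and then 7.46 and 6.81, and its irrigated levels 7.34 and 9.23 and then 6.48 and 9.46. The irrigated channels of replicate 2 were the high ones. Sorted by dye, every Cy3 level lay above every Cy5 level, by a small margin (lowest Cy3 level 7.46, highest Cy5 level 7.34). The mean was -1.02 ± 0.80 (adjusted p 0.831 without the replicate block and 0.0342 with it, 1.64 if turned) and the replicate difference -3.28 ± 0.28 (adjusted p 0.00589), so it was 1 of the 84 genes called for that difference.

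SDH2, the iron-sulfur subunit of the same enzyme, had ratios of -0.11 and 0.15 on day 3 and -0.10 and 0.00086 on day 7. Its mean was -0.016 ± 0.083 (adjusted p 0.973, -0.094 if turned), and its irrigated channel was well above background on 1 array. CytC2, whose symbol denotes cytochrome c, the electron carrier between complexes III and IV, had ratios of -0.39, 0.067 and -0.40 on 3 arrays and of 3.47 on day 7 replicate 2. Its mean of 0.69 ± 0.78 (adjusted p 0.869) rested on that array and was -0.24 without it and -1.08 with replicate 2 turned. The drought level there was 11.31, against 7.70 to 9.02 on the other arrays. NdufA1, a small subunit of complex I, was positive on all 4 arrays (0.96, 0.40, 0.26 and 0.16). It was not well above background in any irrigated channel and was so in 3 drought channels. Its drought signal averaged 1.29-fold over an irrigated signal held at or above the lowest measured one. On day 7 replicate 2 both channels were dim, so this fold is not a strict bound. NdufA1 had an adjusted p of 0.790 in limma. Its mean of 0.45 was 0.16 with replicate 2 turned and 2.92 with processed signals, while that of SDH2 was 0.83 with processed signals.

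**Figure D5:**
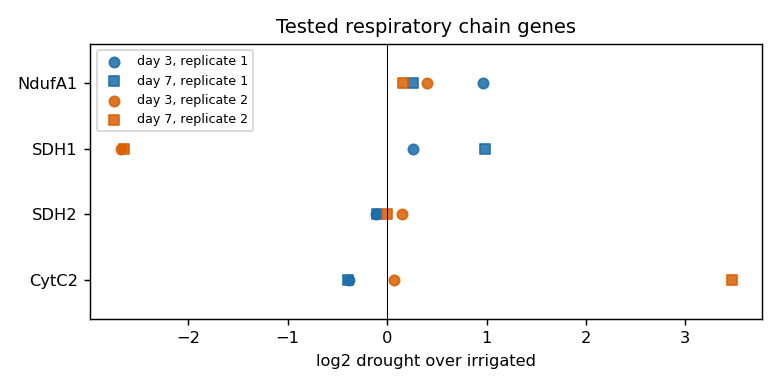
Log2 drought-over-irrigated ratio (horizontal) of the 4 tested respiratory chain genes on each array, with symbols for day and colours for replicate. The replicate 2 points of SDH1 lie together at -2.68 and -2.65, and the day 7 replicate 2 point of CytC2 stands alone at 3.47.

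Of the 80 genes on the array that the gene lists held, 68 were not well above background in any channel of the 4 arrays. Another 12 were so on some array, and 4 were tested. Of all 10413 genes, 526 were tested and 5.01% to 7.64% were well above background on an array, so dimness was general. For complex I and the alternative NADH dehydrogenases, 7 of 26 genes were well above background on some array and 1 was tested. All 11 genes of the ATP synthase list and all 6 of the cytochrome c oxidase and alternative oxidase list stayed dim on all 4 arrays. The same held for the 8 genes of histidine kinase and stress signalling, which include SSK1 and SKN7 of the osmosensing pathway, for both catalases on the array and for the 3 genes of phenolic metabolism. Of 7 laccase and manganese peroxidase genes 1 (MnP) was measured on any array, and of 5 heat shock genes 1 (hspD), neither of which was tested. The median mean response of the 4 tested list genes was 0.21, against 0.0066 over all 526 genes, and 0 of the 4 were called (0.00% over all genes). Beyond the 4 tested genes, the response of these lists to drought was thus not detectable at this signal.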

How the data were processed

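Agilent Feature Extraction 11.5.1.1 wrote the deposited scanner files, per the file headers, which hold raw spot and background intensity values, processed intensity values that were background-subtracted and dye-normalized, and log10 ratios of red over green. The authors' deposited value table holds log2 ratios, for which the submitters' processing notes name limma. It was reproduced to within 5.00e-10 by normexp with an offset of 16 followed by loess (column medians -0.00308 to 0.00615), so its scale and direction (red over green) are known and no centring of columns was applied.

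From the median signals of the 4 riboflavin arrays, normexp (offset 50) and loess within arrays with control spots at weight 0 gave log2 ratios in limma 3.58.1 under R 4.3.3. Spots were averaged by systematic name, which left 10413 genes. No gene spot was saturated or marked as an outlier. Numbers matched a locus tag of Agabi_varbisH97_2 for 10348 genes and a symbol for 88. No build is named for the array, so no coordinates are given. LmFit and eBayes tested the mean of 4 ratios (3 residual degrees of freedom, 1.36 added by eBayes) and the replicate term (2 and 2.00), with Benjamini-Hochberg adjustment and a threshold of 0.05. Channel levels are after loess and Aquantile. Where a channel was never well above background, its signal was held at or above the lowest measured one and the fold averaged over the 4 arrays. That average includes arrays where the other channel was dim too. The number of arrays limits the precision. The fits were tested on simulated data. The simulated noise was independent between arrays, so the fit of the mean was not tested with replicates that oppose each other. Other background corrections, scalings, filters, blocks and omissions of arrays were tried as alternatives.

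Replicate numbers equal dye orientation in the labels, and replicate 2 minus replicate 1 correlated at 0.93 across genes between the days, so a fit with the replicate block is given.

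Members, gene lists and the naming rule were chosen with earlier results of these data known. The rule named called genes, the 6 largest means of each sign among genes with one sign on 4 arrays, the 4 largest replicate differences of each sign among opposed genes, the 3 genes of highest signal, tested genes with a symbol, and up to 3 same-sign members of each gene list. The symbols of the lists were filled in from the reference table after the design was set. The water arrays were not used here.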

Additional observations from a re-analysis of the deposited data

Results flagged for a closer look

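CytC2 had a log2 ratio of 3.47 on day 7 replicate 2, far from its other 3 arrays (-0.40 to 0.067). AGABI2DRAFT_192006 had one of -0.11 on day 7 replicate 2, away from 3 near-equal values of -0.56 to -0.54, and its drought channel was dim on all 4 arrays. Both values came from the same array, which also had the fewest genes well above background in its irrigated channel (226). Chance alone sets apart about 1 in 20 such groups of 4 if the values are independent, and 31 named genes were examined. The ratios here shared replicates and days, so that rate is only a rough guide. The part of that array in these values was not tested.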

How the results depend on the processing

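Limma called 0 genes for drought, days pooled (32 at an unadjusted p under 0.05), and also 0 with replicate as a random block, with each day's arrays averaged first, without both replicate 2 arrays, in the separate-channel fit, with an offset of 16, without background correction, with processed signals, with the deposited log ratios, with detection required on all 4 arrays, with outlier spots kept, with an intensity trend and robust variance, and without any 1 array. The replicate block, which equals a dye term, gave 37 genes, turning both replicate 2 arrays gave 9, and leaving out both replicate 1 arrays gave 59 (12 higher, 47 lower). Median centring gave 1 (AGABI2DRAFT_139997) and testing all genes gave 2 (AGABI2DRAFT_117817 with a limma adjusted p of 0.0208 and AGABI2DRAFT_139997 with 0.0453). The replicate difference was called for 205 genes with processed signals and for 133 with all genes tested. It was called for 42 to 56 genes when 1 array was left out, against 84 with all 4 arrays (53 without day 3 replicate 1, 42 without day 3 replicate 2, 52 without day 7 replicate 1, 56 without day 7 replicate 2). Each such fit has fewer residual degrees of freedom. Turning replicate 2 exchanges, by construction, the counts of same-sign and opposed genes (212 and 73). Median centring left 47 genes of the same sign, and with all genes tested there were 1051 of the same sign and 2324 opposed. Counts of signs under the alternatives were added after the data were seen.

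Of 31 named genes, 28 were run under all 20 alternatives, and 6 of these kept 1 direction of the mean. The other 3 (AGABI2DRAFT_194860, AGABI2DRAFT_192006 and NdufA1) kept theirs under the 19 run on them, which leave out detection on all 4 arrays. With replicate 2 turned, the mean log2 ratio was -1.06 for AGABI2DRAFT_76138, -0.050 for AGABI2DRAFT_117817, 2.49 for AGABI2DRAFT_230069, 0.096 for AGABI2DRAFT_121244, 0.24 for AGABI2DRAFT_113958, 0.51 for AGABI2DRAFT_139997, -0.57 for AGABI2DRAFT_113897, -0.21 for AGABI2DRAFT_213298 and -0.022 for AGABI2DRAFT_67862. It was 3.80 for AGABI2DRAFT_63301, 3.98 for AGABI2DRAFT_195860, 3.30 for AGABI2DRAFT_189264, 4.06 for AGABI2DRAFT_136259, -3.04 for AGABI2DRAFT_194769, -2.98 for AGABI2DRAFT_147031, -2.17 for AGABI2DRAFT_187811, -1.99 for AGABI2DRAFT_75870, -2.01 for AGABI2DRAFT_75612, -1.08 for CytC2 and 1.64 for SDH1. Without both replicate 1 arrays it was 2.75 for AGABI2DRAFT_142253 and 0.078 for SDH2. Without both replicate 2 arrays it was -0.11 for AGABI2DRAFT_76138, 1.45 for AGABI2DRAFT_230069, 2.92 for AGABI2DRAFT_63301, 2.82 for AGABI2DRAFT_195860, 1.97 for AGABI2DRAFT_189264, 2.70 for AGABI2DRAFT_136259, -1.41 for AGABI2DRAFT_194769, -2.13 for AGABI2DRAFT_147031, -0.67 for AGABI2DRAFT_187811, -0.63 for AGABI2DRAFT_75870, -0.64 for AGABI2DRAFT_75612, -0.39 for CytC2 and 0.62 for SDH1. SDH2 gave 0.032 without background correction and 0.83 with processed signals. Leaving out 1 array gave ranges of -1.25 to 0.99 for AGABI2DRAFT_142253, -0.073 to 0.017 for SDH2, -2.28 to 0.42 for AGABI2DRAFT_63301, -2.81 to 0.25 for AGABI2DRAFT_195860, -0.21 to 1.86 for AGABI2DRAFT_147031, -3.12 to 0.12 for AGABI2DRAFT_136259 and -0.24 to 1.05 for CytC2. With replicate 2 turned, a gene with one sign on all arrays reverses by construction where replicate 2 has the larger mean. A gene with opposed replicates takes, by construction, the sign of the replicate that is kept. The cause of the other reversals was not tested.

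With 4 arrays, 5.01% to 7.64% of genes above background and replicate equal to dye orientation, small responses and those of dim genes were not detectable. Larger means of genes well above background in every channel were not called either in the limma fit without the replicate block. Examples are AGABI2DRAFT_139997 (mean -2.46, adjusted p 0.212) and AGABI2DRAFT_205009 (mean 1.91, adjusted p 0.413).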
